A study of Mus musculus with 8 samples.

Results

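Transcripts of aldo-keto and carbonyl reductases were described in the ileum of mice lacking Slc51a and of wild-type mice. The genes were a list of 10 symbols (Akr1b3, Akr1b7, Akr1b8, Akr1c12, Akr1c13, Akr1c14, Akr1c19, Akr7a5, Cbr1 and Cbr3), and every probe set whose single annotated symbol was on the list was taken. Probe sets were found for 8 of the 10 genes, 10 probe sets in all, among 17097 genes measured on 45141 probe sets. Akr1b3 and Akr1b7 were not analysed here. The genes were selected on their signals in these same knockout and wild-type arrays, so the differences of its genes between the genotypes are given as a description, without a test.

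The groups were 4 Slc51a knockout ilea and 4 wild-type ilea, each from male mice on a C57BL/6 background about 2 months old that had been fasted for 4 h. Slc51a encodes a subunit of the exporter that passes bile acids to the portal blood from ileal enterocytes. The labels do not say how the knockout allele was made or whether the wild-type mice were littermates. Each sample was hybridised to 1 Affymetrix 3′ array, and the values are RMA signals on the log2 scale, on which a difference of 1 unit is a change by a factor of 2. The Slc51a signal was 4.67, 4.50, 4.68 and 4.56 in the knockout samples, against 11.36, 11.41, 11.29 and 11.37 in the wild-type samples. Knockout signals were thus close to 4.58, the median over probe sets, and each of the 8 arrays matched its labelled genotype. The labels call the samples of a genotype biological replicates without naming animals, so p-values measure the spread between these samples. Pieces of ileal tissue were used, in which fewer cells of a type and less RNA per cell cannot be told apart.

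Aldo-keto reductases (AKR) are soluble enzymes that fold as a barrel and use NADPH or NADH to turn aldehydes and ketones into alcohols, many of them also running in the oxidative direction on steroids. Carbonyl reductases (CBR) do similar chemistry on ketones and quinones but belong to the unrelated short-chain dehydrogenase family. In the gut epithelium both classes are known for handling reactive aldehydes from lipid peroxidation and diet, steroids, prostaglandins and drugs, and several of them are known targets of NRF2, the transcription factor of the oxidative stress response.

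The listed AKR1B, AKR1C and CBR genes lie beside paralogs, whereas Akr7a5 has no other AKR or CBR gene next to it. The sequences in front of 2 AKR1C genes were nearly the same. RefSeq promoter windows of GRCm38.p6 (250 bases before to 50 after the annotated start) were found for 9 of the 10 listed genes, Akr1b7 among them. Over the 36 pairs of these windows the 250 upstream bases of Akr1c12 and Akr1c13 were 92.5% identical, with 235 identical, 11 mismatched and 8 gapped columns of a global alignment. The next pair, Akr1c13 and Akr1c19, was at 58.7%, and the median pair was at 43.9%. These 2 promoters are shown as the most alike of the 36 pairs. Their genes are close paralogs that a 3′ array may not fully separate. The upstream bases lie outside the annotated transcripts, so their identity does not show whether the array separates the 2 genes. Akr1c12 is on the minus strand at chr13:4279400-4279649 and Akr1c13 on the plus strand at chr13:4190937-4191186, and capitals mark bases that do not match the other gene in the alignment.
Akr1c12: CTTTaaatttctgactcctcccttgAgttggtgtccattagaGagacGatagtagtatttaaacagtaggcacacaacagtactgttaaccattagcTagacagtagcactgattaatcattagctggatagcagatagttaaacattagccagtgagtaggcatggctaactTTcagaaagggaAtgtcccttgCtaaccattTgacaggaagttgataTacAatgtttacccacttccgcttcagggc
Akr1c13: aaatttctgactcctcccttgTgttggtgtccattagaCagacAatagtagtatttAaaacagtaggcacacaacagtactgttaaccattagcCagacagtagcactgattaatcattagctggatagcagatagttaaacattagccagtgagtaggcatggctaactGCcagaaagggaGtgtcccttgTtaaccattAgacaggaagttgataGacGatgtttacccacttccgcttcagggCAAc

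Sequence motifs were counted on both strands of the 300-base windows, where a match describes letters and not a bound site. The core of the antioxidant response element, the site to which NRF2 binds, was searched as TGACNNNGC. It was present in 1 of the 9 windows, that of Akr1c19, and in 12.4% of all 32851 windows. Among 12 other AKR and CBR genes with a window it was present in 3, Akr1cl, Kcnab1 and Kcnab2. The Akr1c19 match was on the minus strand of the transcript, 8 to 16 bases into the annotated transcript, and is shown in capitals within 30 bases on the plus strand at chr13:4233736-4233765.
Akr1c19: cagcagaacttGCTTAGTCAgaagagtgat
The AP-1 motif TGANTCA, which can overlap the antioxidant core, matched in 0 of the 9 windows and in 7.81% of all windows. The inverted repeat bound by the bile acid receptor FXR, written as GGTCA, any 1 base and TGACC, matched in 0 of the 9 and in 0.0396% of all windows. The GC box GGGCGG matched in 3 of the 9 windows, those of Akr7a5, Akr1b8 and Cbr3, and in 35.7% of all windows. It also matched in 4 of the 12 other AKR and CBR genes, Akr1b10, Akr1c18, Kcnab1 and Kcnab2. The promoter of Akr1b8, the gene with the largest difference between genotypes, is shown with its pair of adjoining GC boxes in capitals, on the plus strand at chr6:34353896-34354145.
Akr1b8: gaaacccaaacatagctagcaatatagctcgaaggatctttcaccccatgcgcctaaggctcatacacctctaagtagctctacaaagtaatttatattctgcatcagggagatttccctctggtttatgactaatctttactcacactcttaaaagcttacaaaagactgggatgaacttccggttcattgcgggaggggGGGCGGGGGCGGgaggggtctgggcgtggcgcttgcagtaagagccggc

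All 8 measured reductases had higher signals in the knockout. For each of them, and for all 10 of their probe sets, the lowest knockout sample lay above the highest wild-type sample, an arrangement that 18.0% of all genes showed in this direction and 30.7% in either. All 8 also passed limma at an adjusted p of 0.05, as 17.1% of all genes did in this direction. These counts restate how the list was made, and nothing is read from them. The differences ran from 0.34 to 2.58 with a median of 1.22, beside a median of 0.01 over all 17097 genes. In every one of the 8 the wild-type mean was above 4.58, so none passed a filter on dim genes only through its knockout signal.

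**Figure D1:**
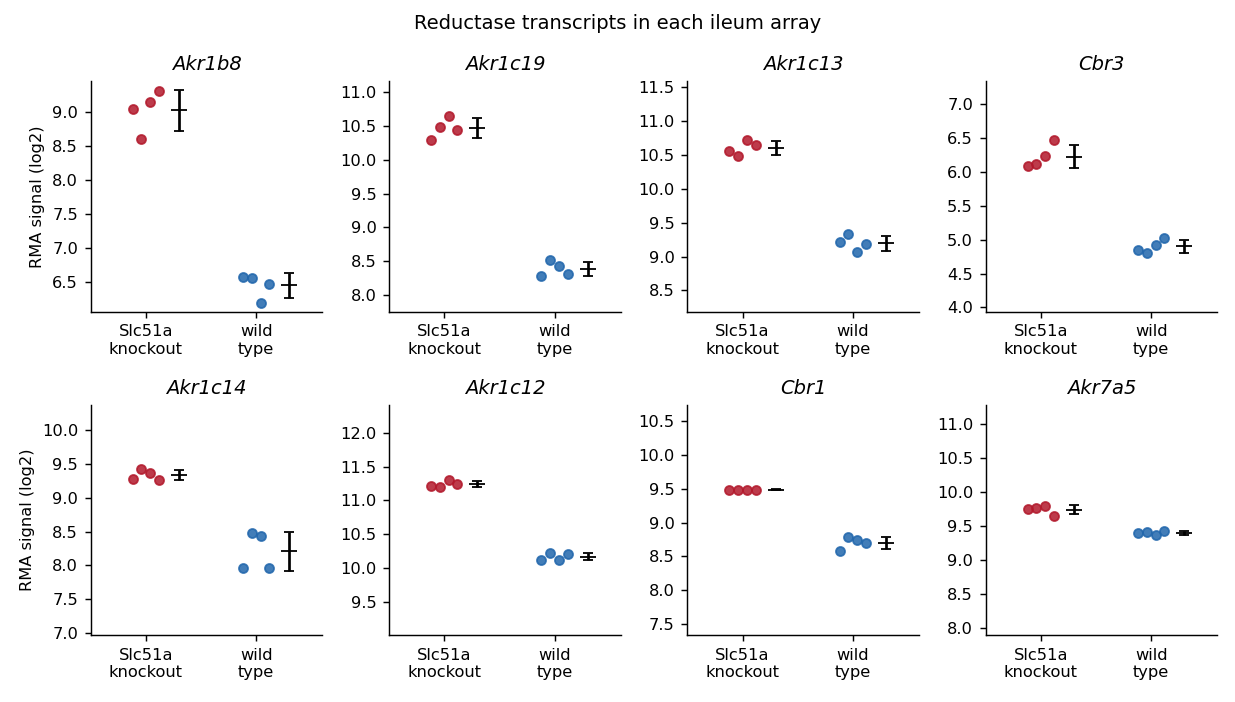
RMA signal (log2, vertical axis) of the 8 reductases in each array, Slc51a knockout left of wild type, n = 4 per genotype, with the mean and SD beside the points; every panel spans the same number of log2 units. The groups do not overlap in any panel, the gap being widest for Akr1b8 (2.03) and narrowest for Akr7a5 (0.21), and the wild-type samples of Akr1c14 fall into 2 pairs.

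Akr1b8, a relative of aldose reductase that reduces lipid-derived aldehydes, had the largest difference and the widest spread among knockout samples. Its signal was 9.04, 8.61, 9.16 and 9.31 in the knockout samples, against 6.57, 6.55, 6.19 and 6.47 in the wild-type samples. Knockout replicate 2 was the lowest of its group and wild-type replicate 3 the lowest of its own, and the groups were 2.03 apart at their closest. The mean was 9.03 ± 0.30 in the knockout and 6.45 ± 0.18 in wild type (SD, n = 4 each), a difference of 2.58 (SE 0.14) or 5.98-fold, with 4.94-fold to 7.24-fold spanned by 2 SE on each side. The knockout SD was larger than that of 98.8% of all genes in the knockout, and the wild-type SD larger than that of 94.6% in wild type. Leaving out single arrays moved the difference between 2.49 and 2.72.

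The AKR1C genes encode hydroxysteroid dehydrogenases with broad substrate ranges, and 4 of them were on the list. Akr1c19, an NAD-preferring enzyme of this group, was at 10.28, 10.49, 10.64 and 10.44 in the knockout samples, against 8.28, 8.52, 8.43 and 8.32 in the wild-type samples. Knockout replicate 3 was the highest and replicate 1 the lowest of the knockout group, and the lowest still stood 1.76 above the highest wild-type sample. The difference was 2.08 (SE 0.08), 4.22-fold.

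Akr1c13, an alcohol and steroid dehydrogenase, was at 10.55, 10.49, 10.71 and 10.65 in the knockout samples, against 9.21, 9.33, 9.06 and 9.19 in the wild-type samples. Both groups were tight, with a gap of 1.16 between them. The mean was 10.60 ± 0.10 in the knockout and 9.20 ± 0.11 in wild type (SD, n = 4 each), a difference of 1.40 (SE 0.07) or 2.65-fold. Akr1c12, its neighbour in sequence, was read by 2 probe sets, and the identifier of the brighter one marks it as matching more than 1 transcript. That probe set was at 11.22, 11.20, 11.31 and 11.25 in the knockout samples, against 10.13, 10.23, 10.12 and 10.21 in the wild-type samples. The other Akr1c12 probe set, whose identifier carries no such mark, was at 9.90, 10.03, 9.94 and 9.82 in the knockout samples, against 8.87, 9.004, 8.91 and 8.94 in the wild-type samples. The 2 probe sets gave nearly the same difference, 1.07 (SE 0.05) for the brighter and 0.99 (SE 0.05) for the other. How much Akr1c13 RNA the Akr1c12 probe sets pick up, and the reverse, was not tested.

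Akr1c14, which acts on ketosteroids as a hydroxysteroid dehydrogenase, was the gene whose wild-type samples disagreed most. It was at 9.28, 9.42, 9.36 and 9.26 in the knockout samples, against 7.96, 8.48, 8.43 and 7.96 in the wild-type samples. Wild-type replicates 2 and 3 stood above replicates 1 and 4, and the highest of them was still 0.78 below the lowest knockout sample. The SD was 0.07 in the knockout and 0.29 in wild type, the second being larger than that of 98.9% of all genes in wild type. The difference was 1.12 (SE 0.12), 2.18-fold.

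Akr7a5, which reduces succinic semialdehyde and the dialdehyde of aflatoxin, had the smallest difference. Its brighter probe set, whose identifier marks possible binding to other transcripts, was at 9.75, 9.77, 9.79 and 9.64 in the knockout samples, against 9.39, 9.40, 9.37 and 9.43 in the wild-type samples. The difference was 0.34 (SE 0.05), 1.27-fold, with a gap of 0.21 between the groups. The other probe set was at 8.48, 8.71, 8.61 and 8.65 in the knockout samples, against 8.19, 8.14, 8.11 and 8.11 in the wild-type samples, a difference of 0.47 (SE 0.06). Both probe sets thus placed knockout above wild type in every sample, and the brighter one gave the smaller value.

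The listed carbonyl reductases were Cbr1, an NADPH-dependent enzyme that reduces quinones, prostaglandins and anthracycline drugs, and Cbr3, its paralog. Cbr1 was at 9.49, 9.49, 9.48 and 9.48 in the knockout samples, against 8.59, 8.79, 8.74 and 8.69 in the wild-type samples. The knockout samples were almost equal, with an SD of 0.00325 that 0.00585% of all genes undercut in the knockout, whereas the wild-type SD was 0.09, beside a median SD of 0.07 over all genes in wild type. The difference was 0.78 (SE 0.05), 1.72-fold. Cbr3 was at 6.08, 6.12, 6.24 and 6.47 in the knockout samples, against 4.85, 4.81, 4.92 and 5.03 in the wild-type samples. Its wild-type mean, 4.90, was not far above 4.58, a range in which RMA can compress differences, and the difference was 1.32 (SE 0.08), 2.50-fold.

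Among the 8 genes the sizes of the differences were compared only between genes next to each other in order of size. Taken array by array, the Akr1b8 difference exceeded that of Akr1c19 by 0.50 (SE 0.20), and that of Akr1c19 exceeded that of Akr1c13 by 0.67 (SE 0.09). Akr1c13, Cbr3, Akr1c14 and Akr1c12 followed each other by 0.08 (SE 0.11), 0.20 (SE 0.20) and 0.05 (SE 0.15), steps no larger than about 1 SE. Such small steps do not place these genes on the same level. From the first to the last of them the difference went from 1.40 (SE 0.07) for Akr1c13 to 1.07 (SE 0.05) for Akr1c12. Further down, Akr1c12 exceeded Cbr1 by 0.29 (SE 0.04), and Cbr1 exceeded Akr7a5 by 0.44 (SE 0.06). These steps come from the values that chose the list and carry no test.

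The arrays of a genotype did not rank alike across the 8 genes. In knockout replicate 3 and in wild-type replicate 2, 7 of the 8 genes lay above the mean of their own genotype, with median deviations of 0.06 and 0.10. In the other 6 arrays 2 to 4 of the 8 genes did, with median deviations from -0.05 to 0.01. The mean signal of the 18 hybridization control probe sets was 8.74 in knockout replicate 3 and 8.83 in wild-type replicate 2, the lowest of the 8 arrays, against 8.86 to 9.15 in the others. The part of these controls in the deviations was not tested. When these arrays and knockout replicate 4, the next lowest, were left out, a step added after seeing the data, the 8 differences kept their direction, Akr1b8 being at 2.41 and Cbr3 at 1.17.

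Most of the other AKR and CBR genes did not pass the test. Of 14 such genes, 13 were measured. Of these 2 rose, 1 fell and 10 did not pass, a share of 23.1%, against 30.0% of all genes in either direction. Their median difference was 0.06, and 8 of the 13 were dim, with both genotype means under 4.58, where a difference can be compressed. Because the list of 10 had been taken out of the same families with the values known, these 13 are what was left over, and the count over both is 10 higher, 1 lower and 10 not passing of 21 measured.

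Cbr4, a mitochondrial reductase that works on quinones and in fatty acid synthesis, rose in the knockout. It was at 7.59, 7.61, 7.62 and 7.52 in the knockout samples, against 7.08, 7.02, 7.15 and 7.18 in the wild-type samples. The groups did not overlap, and the difference of 0.48 (SE 0.05, limma adjusted p = 4.60e-05) was larger than that of Akr7a5, which is on the list. Akr1e1, a reductase of anhydrofructose, was at 8.13, 8.16, 8.12 and 8.11 in the knockout samples, against 8.003, 8.02, 7.95 and 7.93 in the wild-type samples. It rose by a small amount, 0.16 (SE 0.04, limma adjusted p = 0.0192), and its call was lost with quantile normalisation, with cyclic loess, without wild-type replicate 3 or 4 and without the 3 arrays just named.

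Akr1b10, which lies directly beside Akr1b8 in gene order, ran the other way. It was at 5.33, 5.13, 5.36 and 5.18 in the knockout samples, against 5.44, 5.53, 5.36 and 5.42 in the wild-type samples. The groups overlapped and the fall was -0.19 (SE 0.06, limma adjusted p = 0.0476), passing in 5 of 19 alternatives. Its other 2 probe sets were lower in the knockout too, by -0.23 each, with adjusted p of 0.00991 and 0.0301 when all probe sets were tested. Akr1b8 and Akr1b10 therefore differed in direction in all 3 probe set comparisons.

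Akr1a1, the general aldehyde reductase that in mice takes part in ascorbate synthesis, did not pass. It was at 12.40, 12.35, 12.35 and 12.44 in the knockout samples, against 12.27, 12.46, 12.17 and 12.22 in the wild-type samples, a difference of 0.11 (SE 0.06, adjusted p = 0.260). It passed only without wild-type replicate 2, at 0.17 (adjusted p = 0.0367). Akr1c18, the dehydrogenase that inactivates progesterone, differed by 0.08 (adjusted p = 0.268), and Akr1c6, another steroid dehydrogenase, by 0.08 (adjusted p = 0.227). Akr1d1, the reductase of bile acid synthesis in the liver, differed by -0.09 (adjusted p = 0.365), and Cbr2, the tetrameric carbonyl reductase known from lung, by 0.06 (adjusted p = 0.646). Akr1c20 and Akr1cl differed by -0.08 and -0.02, and the potassium channel beta subunits Kcnab1, Kcnab2 and Kcnab3, distant relatives of the AKR enzymes, by -0.12, 0.11 and -0.07. All of these except Akr1a1 and Kcnab2 were among the dim genes, so expression of those genes in the ileum is not shown.

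**Figure D2:**
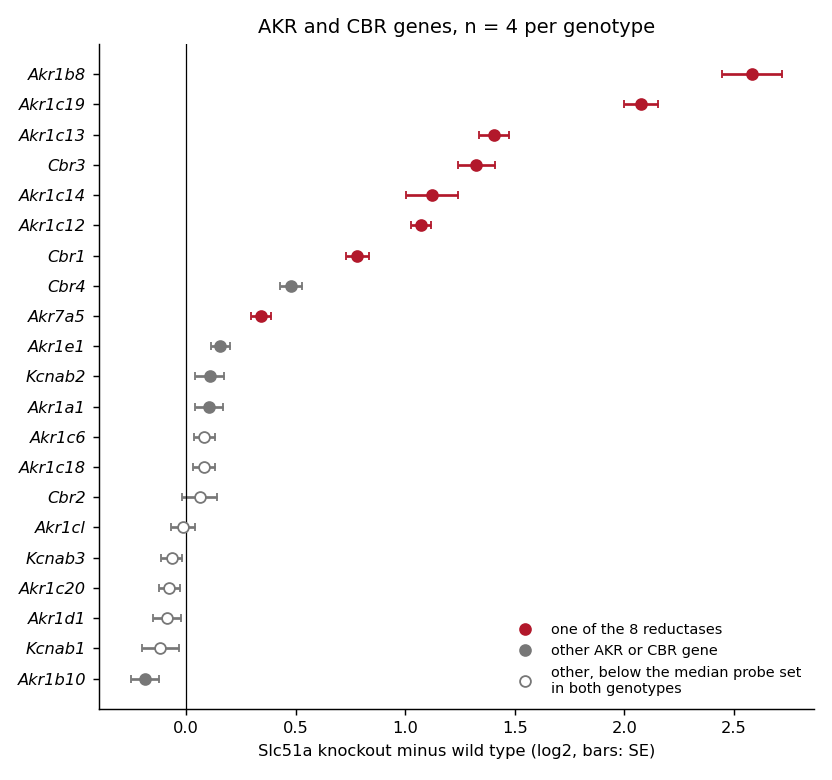
Difference between Slc51a knockout and wild type (log2, horizontal axis, bars SE, n = 4 per genotype) for the 21 measured AKR and CBR genes. The 8 listed reductases (red) run from 0.34 to 2.58, and the others (grey, open where dim in both genotypes) from -0.19 to 0.48.

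In gene order, genes with large and with small differences stood side by side. On chromosome 13 the order was Akr1c14, Akr1c18, Akr1c13, Akr1c19, Akr1c12, Akr1c6, Akr1c20, Akr1c21 and Akr1e1, with Akr1c21 not analysed here. Within this run Akr1c18, between Akr1c14 and Akr1c13, was dim at 4.02 in the knockout and 3.94 in wild type. On chromosome 6 Akr1b8 stood between Akr1b3 and Akr1b10, and on chromosome 16 Cbr1 and Cbr3 were next to each other. The 3 annotated protein-coding genes on each side of each cluster and of Akr7a5 gave 24 neighbours outside the families, of which 22 were measured. Of these 5 rose, 3 fell and 14 did not pass, beside the 30.0% of all genes that passed. The neighbours named here were chosen after their values were seen. Klf6, a zinc finger transcription factor just beyond Akr1e1, changed by -0.86 (SE 0.08, adjusted p = 2.33e-05), a larger size than that of Cbr1. Cald1, the actin-binding caldesmon gene near Akr1b7, changed by -0.68 (SE 0.08, adjusted p = 8.39e-05). Pitrm1 and Setd4 rose by 0.38 and 0.27, and Dop1b changed by -0.19. Around Akr7a5, Micos10, Mrto4 and Emc1 rose by 0.34, 0.38 and 0.32, close to the 0.34 of Akr7a5 itself.

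**Figure D3:**
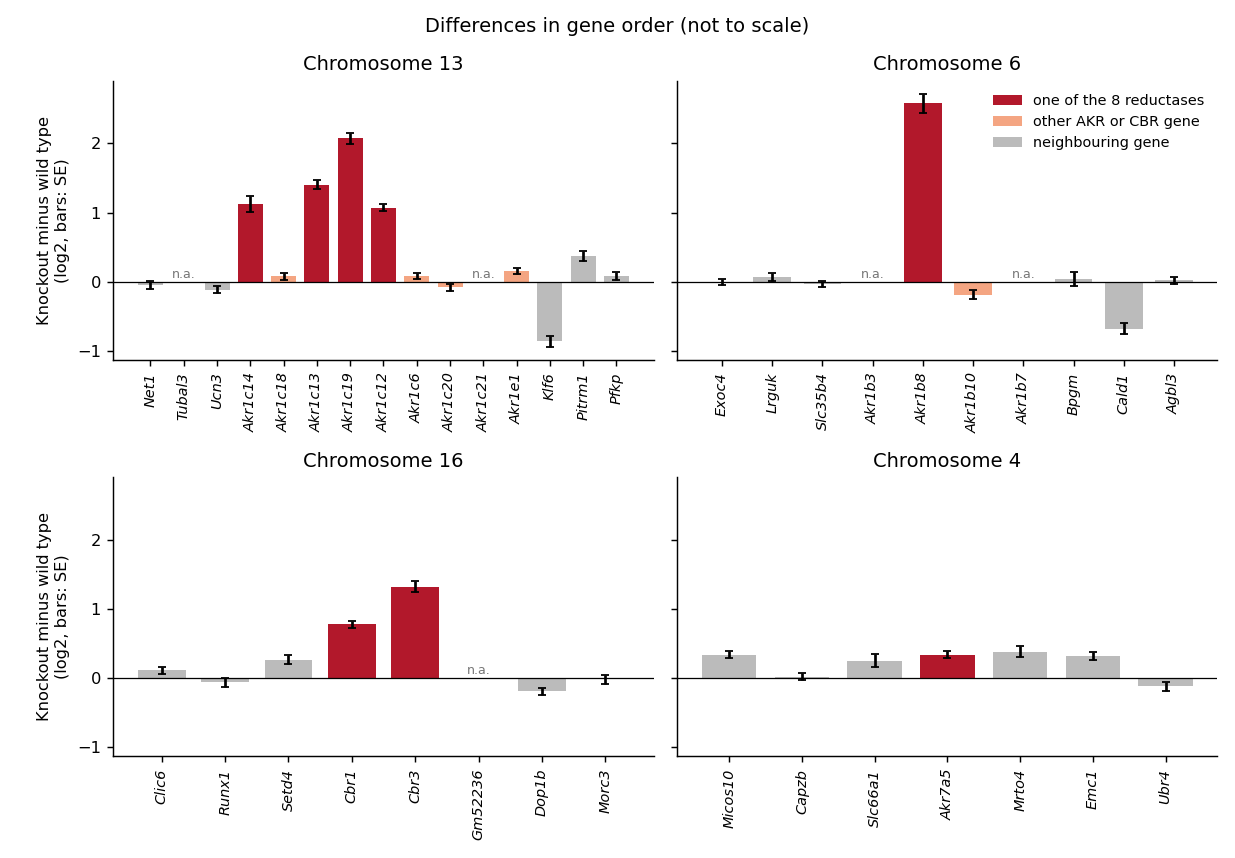
Difference between Slc51a knockout and wild type (log2, vertical axis, bars SE, n = 4 per genotype) for AKR and CBR genes and the 3 protein-coding genes on each side, in gene order and not to scale; n.a. marks genes not analysed here. Red bars point up at all 4 loci, Klf6 on chromosome 13 (-0.86) and Cald1 on chromosome 6 (-0.68) point down, and Akr7a5 on chromosome 4 (0.34) is level with several of its neighbours.

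Enzymes that share substrates or cofactors with these reductases moved in both directions. Of 16 other short-chain dehydrogenases, 6 rose, 3 fell and 7 did not pass (median 0.12). The list mixes enzymes that reduce carbonyls with enzymes, such as Hsd11b2 and Hsd17b2, that work mainly in the oxidative direction. Dhrs4, a peroxisomal carbonyl reductase, rose by 0.42 (SE 0.04, adjusted p = 3.77e-05), Hsd17b6, a steroid and retinol dehydrogenase, by 1.14 (SE 0.15, adjusted p = 0.000214) and the mitochondrial Hsd17b10 by 0.32 (SE 0.05). Dhrs11 fell by 0.53 (SE 0.06, adjusted p = 5.97e-05).

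NADPH, the electron donor of most of these reductases, is made by the pentose phosphate pathway, malic enzyme and isocitrate dehydrogenases. Of 12 measured genes of NADPH supply, 9 rose, 1 fell and 2 did not pass (median 0.31). G6pdx, the glucose-6-phosphate dehydrogenase of the pentose phosphate pathway, was not among the 12. Me1, cytosolic malic enzyme, was at 8.40 ± 0.23 in the knockout and 6.99 ± 0.16 in wild type (SD, n = 4 each), a rise of 1.41 (SE 0.11, adjusted p = 8.85e-06). Pgd rose by 0.78 (SE 0.05), the NAD kinase Nadk by 0.42 (SE 0.05) and the lactonase Pgls by 0.38 (SE 0.05). Me2, named after its value was seen, was the gene of the list that fell, by 0.41. It encodes a mitochondrial malic enzyme that works mainly with NAD. The genes that rose were not sorted by whether their enzymes make NADPH either. The counts therefore describe the list and not the amount of NADPH made.

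The NRF2 list had 13 measured genes, of which 9 rose, 0 fell and 4 did not pass (median 0.47). Gsr, glutathione reductase, rose by 1.09, the quinone reductase Nqo1 by 0.95 (SE 0.07), Gclc, the catalytic subunit of glutathione synthesis, by 0.75 (SE 0.07) and Ugdh by 0.65 (SE 0.06). The 4 that did not pass, named after their values were seen, were Hmox1 at 0.02, Srxn1 at -0.03, Slc7a11 at 0.10 and Osgin1 at -0.28. Osgin1 (adjusted p = 0.0527) was called lower in 8 of the 19 alternatives, so the count of 0 that fell depends on the setting. Of these 4 genes Hmox1 and Slc7a11 were dim in both genotypes.

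Of 11 aldehyde dehydrogenases, which oxidise the aldehydes that AKR enzymes reduce, 5 rose, 1 fell and 5 did not pass (median 0.05). Aldh3a2 rose by 0.51 (SE 0.08), Aldh7a1 by 0.47 (SE 0.07) and Aldh1a1, an enzyme of retinoic acid synthesis, by 0.27 (SE 0.07), whereas Aldh1a3 fell by 0.63 (SE 0.08). The count that rose was 3 without knockout replicate 2 or 3 or without wild-type replicate 1, 3 or 4, and 3 with the mean of probe sets. Quantile normalisation and cyclic loess each gave 3 higher and 2 lower, and leaving out the 3 arrays of low hybridization controls gave 2 higher and 1 lower. Aldh2 and Aldh1b1, named after their values were seen, passed in 7 and 11 of the 19 alternatives.

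Prostaglandins are made and inactivated by several oxidation and reduction steps. Of 15 genes of their synthesis and breakdown, 4 rose, 2 fell and 9 did not pass (median -0.03). Slco2a1, the prostaglandin uptake transporter, was at 7.15 ± 0.13 in the knockout and 8.60 ± 0.09 in wild type (SD, n = 4 each), a change of -1.45 (SE 0.07, adjusted p = 4.83e-07). Hpgd, the dehydrogenase that begins prostaglandin breakdown, changed by -0.72 (SE 0.09), while the reductase Ptgr1 rose by 0.83 (SE 0.08) and Ptges2 by 0.66 (SE 0.06). Of 6 measured genes of the list for the polyol pathway and fructose use, 1 rose, 2 fell and 3 did not pass (median -0.27). The 6 were Khk, Tkfc, Slc2a5, Slc2a2, Hk1 and Hk2. Neither aldose reductase nor sorbitol dehydrogenase was among them, so the polyol route itself was not measured. Khk, ketohexokinase, changed by -0.47 (SE 0.06), Hk2 by -0.49 (SE 0.12, groups overlapping, called in 17 of 19 alternatives) and Hk1 by 0.29 (SE 0.05).

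The shares that passed were 56.2% for the short-chain dehydrogenases, 83.3% for NADPH supply, 69.2% for NRF2, 54.5% for aldehyde dehydrogenases, 40.0% for prostaglandins, with 3 of 6 for the polyol list, against 30.0% of all genes. The 30.0% takes in dim genes, of which the lists held few, with 0 of 12 for NADPH supply and 3 of 15 for prostaglandins. When dim genes were dropped, 5030 of the 11100 genes left passed, a larger share than 30.0%. These are descriptions of short lists, and no list was tested against other genes.

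**Figure D4:**
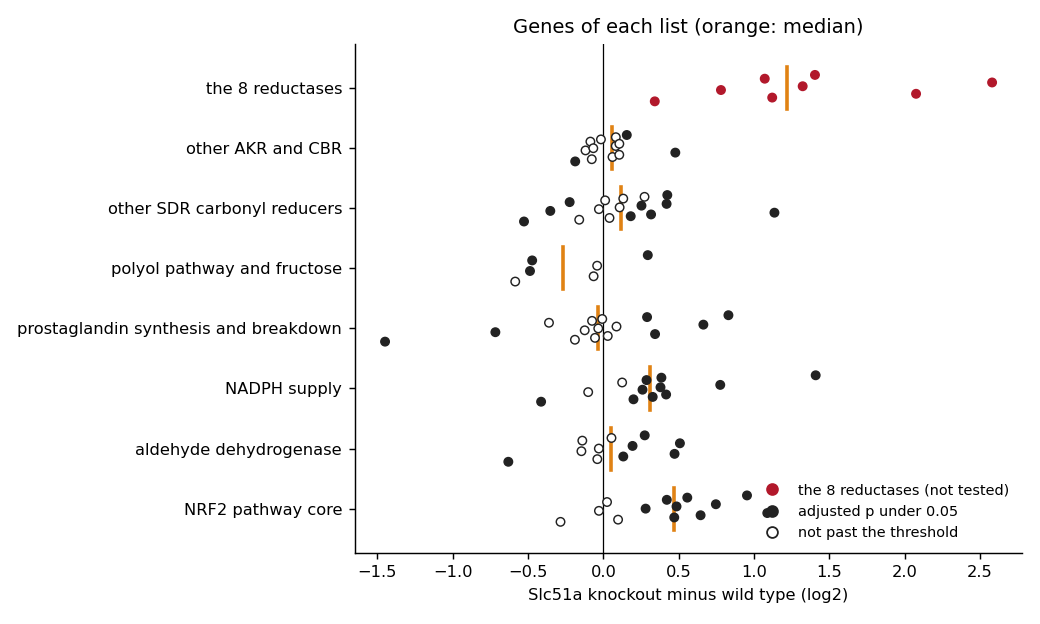
Difference between Slc51a knockout and wild type (log2, horizontal axis) of every measured gene, by list, with the list's median in orange; filled black points passed limma at an adjusted p of 0.05 and open points did not. The listed reductases, chosen for their values, lie at 0.34 and above, NADPH supply and NRF2 genes lie mostly above 0, and prostaglandin genes spread from -1.45 to 0.83.

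Markers of the cells in the tissue did not move together. Of 10 epithelial markers 3 rose, 2 fell and 5 did not pass (median -0.03), with a summed log2 signal of 115.4 to 116.2 in the knockout and 115.4 to 115.9 in wild type. Relative to the mean of these markers in the same array, the differences of the reductases were 2.56 for Akr1b8, 2.06 for Akr1c19, 1.39 for Akr1c13, 1.30 for Cbr3, 1.10 for Akr1c14, 1.05 for Akr1c12, 0.76 for Cbr1 and 0.32 for Akr7a5. All 7 smooth muscle markers fell, their summed signal being 62.2 to 64.1 in the knockout and 67.8 to 71.1 in wild type. Of 8 T lymphocyte markers 7 fell, with sums of 46.7 to 49.2 in the knockout and 59.2 to 60.8 in wild type. Of 7 hepatocyte markers 1 rose and 1 fell, with sums of 32.1 to 33.7 in the knockout and 31.9 to 32.5 in wild type. Those that passed, named after their values were seen, were Ttr, transthyretin, at 6.57 in the knockout and 5.37 in wild type (1.20, SE 0.17, adjusted p = 0.000276), and Tat, tyrosine aminotransferase, at 4.91 in the knockout and 5.44 in wild type (-0.53, SE 0.11, adjusted p = 0.00489). Alb, Serpina1a and Fgb, which encode plasma proteins of the liver, were under 4.58 in both genotypes. Apoh and Cyp2e1 were above it and did not pass. Apoh was at 5.09 in the knockout and 5.12 in wild type, and Cyp2e1 at 5.46 and 5.50. Enteroendocrine markers rose in 4 of 7 genes (sums of 54.5 to 56.8 in the knockout and 50.7 to 54.5 in wild type). The part of the muscle, T lymphocyte, hepatocyte and enteroendocrine markers in the reductase differences was not tested.

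The genes whose profile over the 8 arrays was most like that of Akr1b8, by Pearson's r among genes at or above the median probe set, were Cops5, Gtf2h5, Ufsp2, Ap1s1 and Glod4. For Akr1c19 they were Prdx2, Gsta4, Ahcy, Fads3 and Aadac. The 8 arrays form 2 clusters by genotype, so the likeness is a description of profiles that share the genotype difference, and no r is given as a relation. The genes most like Akr1b8 had differences of 0.43 to 0.66, and those most like Akr1c19 ran from 0.28 for Prdx2, a peroxiredoxin, to 1.99 for Gsta4, a glutathione transferase.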

How the data were processed

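Total RNA from the ileum (250 ng per sample) was biotin-labelled by a GeneAtlas kit, as the labels' protocols state. The deposited values are log2 signals per probe set from RMA, per the submitters' processing notes, with no software version in the sources used here. As a method RMA equalises arrays and compresses low signals. Of 45141 probe sets, 104 were controls, 28898 had 1 symbol, 551 several and 15588 none listed; current symbols came from RefSeq (GRCm38.p6) by way of Entrez identifiers, found there for 28689 single-symbol probe sets. The brightest probe set with 1 symbol represented each of 17097 genes, with no filter. The sources used here give no scan date, so a batch was not tested, and 4 arrays per genotype limit the precision.

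The genotype difference was fitted by limma 3.58.1 (R 4.3.3; lmFit, eBayes; 2-sided), p-values were adjusted by Benjamini-Hochberg across the 17097 genes, and calls were made at 0.05; the fit was tested on simulated data. Differences are knockout minus wild type. The listed genes and all other lists were chosen with earlier results of these data known. Named were the listed genes, Slc51a, the other AKR and CBR genes, at most 4 called genes of each other list, taken by smallest adjusted p, and the 5 genes most like Akr1b8 and Akr1c19. The lists were 12 other AKR and 2 CBR genes, 17 short-chain dehydrogenases, 9 polyol and fructose, 16 prostaglandin, 14 NADPH, 11 aldehyde dehydrogenase and 14 NRF2 genes, and markers of epithelium, ileal enterocytes, goblet, Paneth, enteroendocrine, tuft, smooth muscle, T, B, myeloid, fat, pancreatic and liver cells. Markers not described in the results gave 0 higher and 1 lower of 3 for ileal enterocytes, 1 and 2 of 6 for goblet, 0 and 0 of 3 for Paneth, 0 and 2 of 6 for tuft, 0 and 3 of 5 for B lymphocyte, 0 and 4 of 7 for myeloid, 0 and 0 of 4 for fat and 1 and 0 of 6 for pancreatic genes. Promoters were aligned globally with Biopython 1.88 (match 2, mismatch -1, gap opening -5, extension -1). Figures used matplotlib 3.10.9.

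The alternatives tried were normalisation by quantiles, medians or cyclic loess, dropping dim genes, averaging a gene's probe sets or testing every probe set, a robust trended eBayes, weighted arrays, an unmoderated linear model, blocking on replicate number, and omitting each array. Omitting the 3 arrays of lowest hybridization controls was added after the data were seen.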

Additional observations from a re-analysis of the deposited data

Results flagged for a closer look

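Akr1cl in the knockout was the only result set apart by a sample far from the others among the 42 groups of 4 arrays looked at, 2 for each of the 21 AKR and CBR genes. Knockout replicate 2 was at 4.60 and the other 3 knockout samples at 4.49 to 4.50, a gap of 0.929 of the whole range, above Dixon's critical value. All these values lie near the median of all probe sets, 4.58, and chance flags about 1 group in 20.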

How the results depend on the processing

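The 8 listed reductases were higher in the knockout under all 19 alternatives. Of 152 values, 147 moved by less than the SD between replicates; the others were Akr1c12 (0.98), Akr7a5 (0.26) and Cbr1 (0.70) with cyclic loess, Akr7a5 with the mean of probe sets (0.41) and Cbr3 without the 3 arrays of lowest hybridization controls (1.17). Of the other AKR and CBR genes 3 were called; 1, Cbr4, was called with quantile normalisation, with cyclic loess and without the 3 arrays, and leaving out single arrays gave 1 (without wild-type replicate 4) to 3. Cbr4 passed in 19 of 19 alternatives (adjusted p from 2.21e-05 to 0.00209), Akr1e1 in 14 (0.00842 to 0.176) and Akr1b10 in 5 (0.00164 to 0.151). All 21 AKR and CBR genes gave 11 calls, and 9 to 11 in the alternatives, beside the 30.0% of all genes that passed in the main fit. The 8 listed genes, chosen on these same values, are among the 11, so nothing is read from this count or its stability. Over all genes 5134 were called, 4366 to 4945 on leaving out single arrays and 3493 without the 3 arrays. Dim genes gave no value under the filter on them. With the replicate number as a block, 5190 genes and 10 AKR and CBR genes were called, Akr1b10 being lost. The correlations of same-numbered arrays' deviations were 0.22, -0.05, 0.11 and 0.16 for replicates 1 to 4, so the numbers were not taken to pair samples. Other causes of these changes were not tested. Signals near the array floor limit what can be said of the dim genes.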
